A study of Mus musculus with 20 samples.

Results

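The G1 cyclins, their kinases and their inhibitors are 10 genes, Ccnd1, Ccnd2, Ccnd3, Cdk4, Cdk6, Ccne1, Ccne2, Cdkn1a, Cdkn1b and Cdkn2c. They were chosen by symbol from the 24862 gene rows of each RNA-seq table, and all 10 have a row in all 12 libraries. Levels are given as CPM, the counts of a gene per 1000000 summed gene counts of its library. In the passage from G1 to S phase, D-type cyclins bind the kinases CDK4 and CDK6 and begin to phosphorylate the retinoblastoma protein (Rb), which holds back the E2F transcription factors. Cyclin E, with CDK2, completes the phosphorylation, and E2F then switches on genes for DNA synthesis. The proteins p21 (Cdkn1a) and p27 (Cdkn1b) inhibit CDK complexes broadly, and p18 (Cdkn2c) inhibits CDK4 and CDK6. T cells leave quiescence through this step when their antigen receptor and CD28 are engaged.

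The libraries come from mouse TH17 cells, the CD4+ T cells that make interleukin-17, in 3 matched pairs of groups with 2 libraries each. In the first pair, GFP+ TH17 cells of C57BL/6 mice were sorted from the central nervous system (CNS) or from the ileum and prepared with the SMART-Seq v4 low-input kit. The reporter allele and the age of the mice are not given in the labels. In the second pair, TH17(β) cells, grown from naive CD4+ T cells with anti-CD3, anti-CD28, anti-IL-4 and anti-IFN-γ antibodies, TGF-β1 at 2 ng/ml and IL-6 at 20 ng/ml, either overexpressed c-Rel (Ad-c-Rel) or were the matched Ad-control cells. In the third pair, TH17(23) cells were grown with the same 4 antibodies and with IL-23, IL-1β and IL-6 at 20 ng/ml each, from miR-21-/- or control mice. c-Rel (gene Rel) is a subunit of NF-κB, and miR-21 is a microRNA. The labels do not say that replicates are separate animals or cultures, so p-values reflect how these libraries vary, and that variation may be technical.

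Gene counts summed to 15421743 to 19930807 per library in the sorted and Ad groups and to 32766097 to 36711252 in the TH17(23) groups. The manipulated genes followed the labels: Rel stood at 57.5 and 61.9 CPM in Ad-c-Rel cells, against 10.8 and 7.02 CPM in Ad-control cells. The Mir21a row, a short precursor gene, held 0 and 0 counts in miR-21-/- cells, against 25 and 20 counts in control cells. The T cell and TH17 marker genes were detected in all 12 libraries. The CNS libraries held a summed 18622 and 18860 CPM of 15 myeloid and microglial marker genes, against 2175 and 2322 CPM in the ileum libraries and 25.0 to 55.6 CPM in the cultures. The 7 TH17 markers summed to 637 and 599 CPM in CNS libraries, against 10536 and 11502 CPM in ileum libraries. The second libraries of both tissues also detected fewer genes, 11545 in CNS and 10771 in ileum, than the first ones, at 14224 and 13927. All of these are bulk libraries, in which fewer cells of a type and less RNA per cell cannot be told apart.

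Cdkn1a was called in 2 of the 3 pairs, in opposite directions, so both of its RefSeq promoter windows (GRCm38.p6, plus strand, 250 bases before to 50 after a transcription start) are shown. Capitals mark a match to the p53 response element in the first window and GC boxes (GGGCGG) in the second.
Cdkn1a, chr17:29090729-29091028: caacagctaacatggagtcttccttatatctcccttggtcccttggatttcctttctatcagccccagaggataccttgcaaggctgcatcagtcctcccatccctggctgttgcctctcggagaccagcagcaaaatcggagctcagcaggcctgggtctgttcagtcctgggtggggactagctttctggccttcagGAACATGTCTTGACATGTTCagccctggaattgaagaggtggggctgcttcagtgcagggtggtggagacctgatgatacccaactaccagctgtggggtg
Cdkn1a, chr17:29093519-29093818: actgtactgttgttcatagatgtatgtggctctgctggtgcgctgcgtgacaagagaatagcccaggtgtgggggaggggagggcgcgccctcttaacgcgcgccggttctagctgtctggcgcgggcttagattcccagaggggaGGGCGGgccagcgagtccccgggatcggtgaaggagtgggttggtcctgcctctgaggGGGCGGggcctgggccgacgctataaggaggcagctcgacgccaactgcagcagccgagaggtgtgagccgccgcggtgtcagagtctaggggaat
The p53 element was searched as 2 adjoining decamers with at most 1 mismatch outside their core, on both strands, a search chosen after the sequence was seen. It occurred in 18 of 32851 RefSeq promoter windows, or 0.0548%. GC boxes occurred in 35.7% of them. No window was at hand for Ccnd1, Ccnd2 and Ccne2, so these 3 genes were not searched. They include Ccnd2 and Ccne2, which were called higher in Ad-c-Rel cells (below). Windows were at hand for the other 7 of the 10 genes. None of these held the E2F motifs TTTCCCGC, TTTGGCGC, TTTGCCGC or TTTCGCGC, which 2.26% of all windows hold. Nor did they hold the NF-κB (kappaB) strings that were searched, which 3.24% of all windows hold. Those strings do not cover all forms of the kappaB consensus. Other forms were not searched and may be present in these windows. A match is a description of letters, and its absence says only that these letters are not in the window.

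The first comparison asks how TH17 cells in the CNS differ from those in the ileum. Cdkn1a was lower in the CNS, and no other member passed the test. Cdkn1a, which encodes p21 and is a classical p53 target, stood at 251 and 248 CPM in the CNS libraries, against 617 and 609 CPM in the ileum libraries. Both CNS libraries lie far below both ileum libraries, and each pair of replicates nearly coincides. The difference was 2.82-fold (log2 -1.49, SE 0.13, edgeR quasi-likelihood test, Benjamini-Hochberg adjusted p = 0.00333). It was called in all 9 alternatives. Scaling on T cell markers gave log2 -1.04 (adjusted p = 0.00841). The 15 myeloid markers, all called higher in the CNS, move with this result, as do B and plasma cell markers, which summed to 30.7 and 8.22 CPM in CNS libraries, against 3562 and 3506 CPM in ileum libraries. Their part in it was not tested. Of the 10 members 1 was called, while 9.66% of all genes tested were called and 5.66% were called lower. At an unadjusted p under 0.05 there were 2 members, while 24.4% of all genes reached it.

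None of the 3 D cyclins passed in the CNS. The CNS and ileum libraries differ in myeloid, B and plasma cell markers, as given above. The part of these markers in the values of the D cyclins, CDKs and other members below was not tested. Ccnd3, which pairs with CDK4 and CDK6, had 205 and 176 CPM in CNS libraries, against 70.4 and 109 CPM in ileum libraries. The groups do not overlap, and the log2 difference was 0.89 (SE 0.26, adjusted p = 0.104). DESeq2 called it (adjusted p = 0.00535), as did the fit without a filter (adjusted p = 0.00477) and scaling on T cell markers (log2 1.34, adjusted p = 0.0385). Ccnd1 had 258 and 141 counts (15.3 and 7.33 CPM) in CNS libraries, against 15 and 0 counts (0.923 and 0 CPM) in ileum libraries. The 8 cultured libraries held 0.0648 to 2.01 CPM of it. Both CNS libraries are above both ileum libraries, but 1 of those holds 0 counts, which at 3 counts allows up to 0.176 CPM. The fitted log2 difference of 4.38 (SE 2.12, adjusted p = 0.291) depends on the prior count and is no bound. DESeq2 called it (adjusted p = 0.0303), and so did edgeR without ileum replicate 1 (adjusted p = 0.0239). Ccnd2 had 252 and 249 CPM in CNS libraries, against 248 and 164 CPM in ileum libraries, a log2 difference of 0.08 (SE 0.25, adjusted p = 0.902).

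Cdk4 had 110.1 and 104.6 CPM in CNS libraries, against 60.5 and 73.6 CPM in ileum libraries, which do not overlap (log2 0.48, SE 0.23, adjusted p = 0.284). Cdk6, its sister kinase, had 133 and 102 CPM in CNS libraries, against 93.5 and 123 CPM in ileum libraries, which overlap. The E cyclins, which activate CDK2, showed no called difference: Ccne1 had 17.7 and 9.36 CPM in CNS libraries, against 9.60 and 10.9 CPM in ileum libraries, and Ccne2 had 3.69 and 2.60 CPM, against 3.26 and 1.35 CPM. Cdkn1b, which encodes p27, had 40.1 and 33.3 CPM in CNS libraries, against 43.7 and 54.3 CPM in ileum libraries, with no overlap (log2 -0.61, SE 0.31, adjusted p = 0.315). Cdkn2c had 15.2 and 24.8 CPM in CNS libraries, against 17.3 and 14.8 CPM in ileum libraries, which overlap. Overlap was judged in CPM, without the TMM scaling of the fit, which moved the log2 differences of this pair by -0.20. By this measure 4 members had both CNS libraries above and 2 below the ileum libraries, and 4 overlapped. Ccnd2 is among those above, at 248.9 CPM against 248.5 CPM where the groups come closest. Of all tested genes 38.9% were above in that sense, 21.6% were below, and 60.5% did not overlap in either direction. The median log2 difference of the 10 members was 0.16, against 0.08 over all tested genes.

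**Figure D1:**
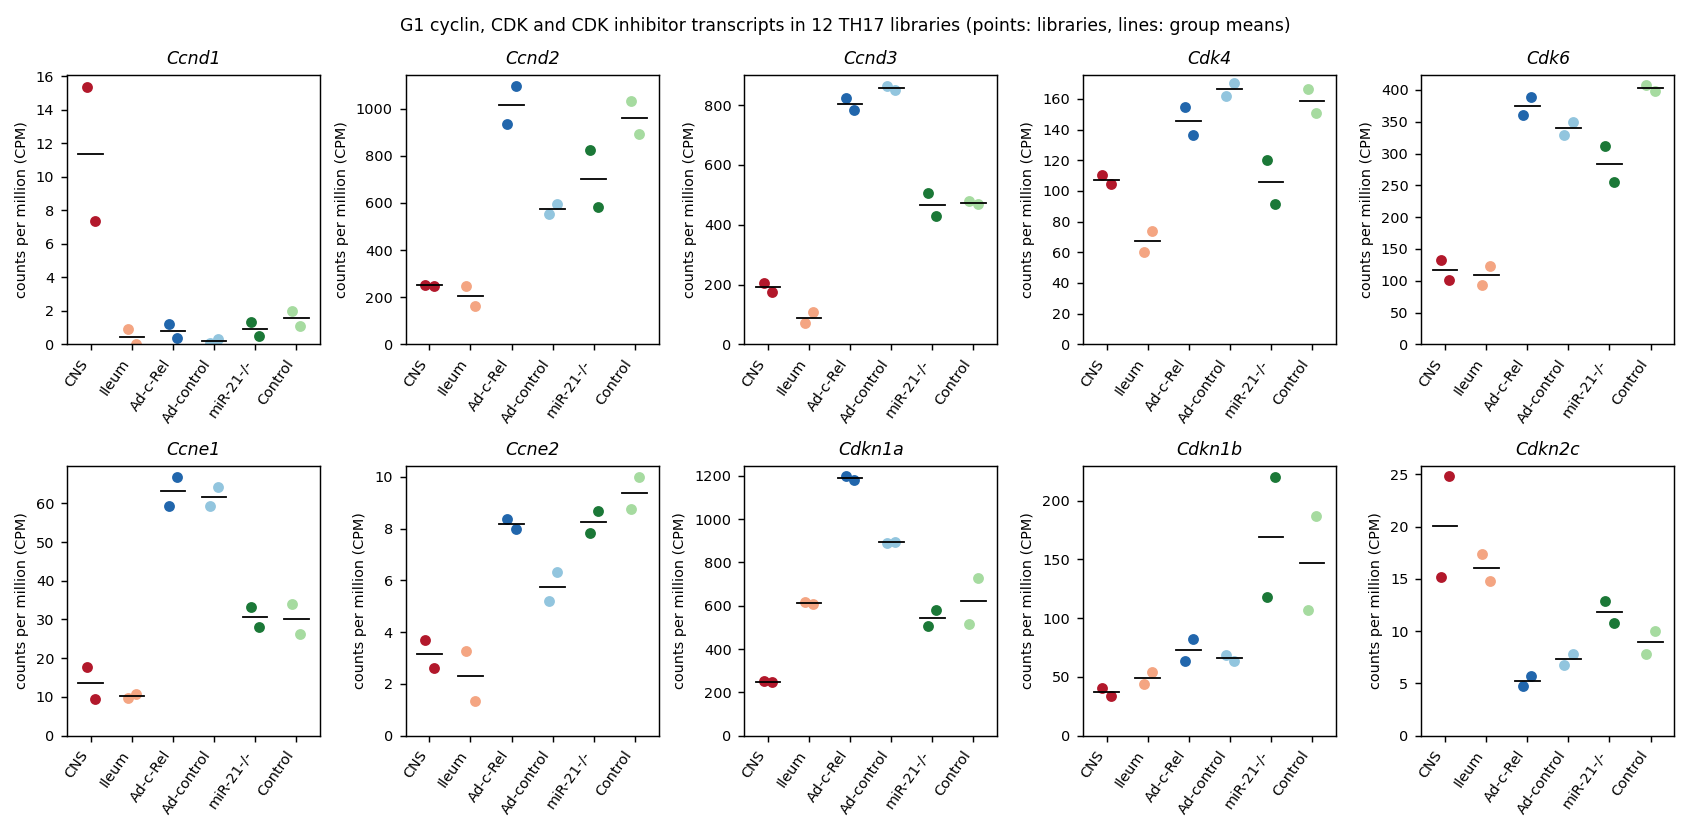
Levels of the 10 genes in CPM, 1 panel per gene, with 1 point per library and a line at each group mean (n = 2). Cdkn1a sits at 251 and 248 CPM in CNS libraries, below all other groups, and Ccnd2 and Ccnd3 sit lower in the sorted cells than in the cultures.

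The second comparison asks what c-Rel overexpression changes in TH17(β) cells. Ccnd2, Cdkn1a and Ccne2 were higher in Ad-c-Rel cells, and none of the 9 members tested was called lower. Ccnd2, which encodes cyclin D2, had 937 and 1098 CPM in Ad-c-Rel libraries, against 553 and 594 CPM in Ad-control libraries. The groups stand clearly apart, and the difference was 1.85-fold (log2 0.88, SE 0.09, adjusted p = 4.85e-06, edgeR). Cdkn1a had 1199 and 1180 CPM in Ad-c-Rel libraries, against 890.1 and 895 CPM in Ad-control libraries, and these do not overlap either. It was 1.39-fold higher (log2 0.47, SE 0.07, adjusted p = 0.000334). Ccnd2 and Cdkn1a were called in all 8 alternatives. The TH17 markers moved with them, at a summed 7316 and 7278 CPM in Ad-c-Rel libraries, against 3968 and 4235 CPM in Ad-control libraries, and 3 of 5 tested myeloid markers were called higher, at a summed 55.6 and 53.3 CPM, against 31.7 and 35.5 CPM, with C1qa, C1qb and C1qc at 0 in all 4 libraries. The part of either in these results was not tested. Ccne2, a cyclin of CDK2, had 8.36 and 7.97 CPM (147 and 131 counts) in Ad-c-Rel libraries, against 5.19 and 6.32 CPM (80 and 126 counts) in Ad-control libraries. It was 1.47-fold higher (adjusted p = 0.0494), a call lost with DESeq2 (adjusted p = 0.187) and without any 1 library (adjusted p = 0.0511 to 0.229). Of the 9 members 3 were called, all higher, while 14.3% of all genes tested were called, 8.15% higher and 6.11% lower. At an unadjusted p under 0.05 there were 5 members, while 28.6% of all genes reached it.

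The other D and E cyclins gave no call. Ccnd3 had 825 and 784 CPM in Ad-c-Rel libraries, against 863 and 850 CPM in Ad-control libraries, with no overlap but a log2 difference of -0.03 (SE 0.07, adjusted p = 0.820). Ccne1 had 59.4 and 66.8 CPM in Ad-c-Rel libraries, against 59.3 and 64.3 CPM in Ad-control libraries. Ccnd1 was too low for the filter of the main fit, with 21 and 6 counts in Ad-c-Rel libraries and 1 and 6 counts in Ad-control libraries. In the fit without a filter it was tested and not called. Cdk4 had 154 and 136 CPM in Ad-c-Rel libraries, against 162 and 170 CPM in Ad-control libraries (log2 -0.14, SE 0.08, adjusted p = 0.301). Cdk6 had 361 and 388 CPM in Ad-c-Rel libraries, against 329 and 350 CPM in Ad-control libraries (log2 0.20, SE 0.08, adjusted p = 0.103). In CPM both kinases separate the groups, in opposite directions. The TMM library scaling of the fit, which CPM leaves out, moved the log2 differences of this pair by 0.06. Cdkn1b had 63.4 and 82.3 CPM in Ad-c-Rel libraries, against 68.8 and 63.1 CPM in Ad-control libraries, which overlap (log2 0.20, adjusted p = 0.243), and without Ad-c-Rel replicate 1 it was called at log2 0.38 (adjusted p = 0.0227). Cdkn2c had 4.78 and 5.66 CPM in Ad-c-Rel libraries, against 6.74 and 7.83 CPM in Ad-control libraries, with no overlap (log2 -0.43, SE 0.19, adjusted p = 0.142). In CPM, 4 of the 9 tested members had both Ad-c-Rel libraries above, 3 below, and 2 overlapped. Of all tested genes 21.4% were above in that sense, 37.3% were below, and 58.7% did not overlap in either direction. The median log2 difference was 0.20, against -0.01 over all tested genes.

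In the third comparison, which asks what loss of miR-21 changes in TH17(23) cells, edgeR called 0 of the 10 members and 0 of 13428 genes (0%), with 2 members and 2821 genes (21.0%) at an unadjusted p under 0.05. DESeq2 called 0 of the members and 824 genes. The TH17 markers summed to 805 and 354 CPM in miR-21-/- libraries, against 2482 and 1704 CPM in control libraries, and their part in the values that follow was not tested. Cdk4 had 120 and 91.8 CPM in miR-21-/- libraries, against 167 and 151 CPM in control libraries, with no overlap (log2 -0.52, SE 0.13, adjusted p = 0.147). Cdk6 had 312 and 255 CPM in miR-21-/- libraries, against 408 and 399 CPM in control libraries, again apart (log2 -0.45, SE 0.14, adjusted p = 0.172). Ccnd2 had 823 and 584 CPM in miR-21-/- libraries, against 1031 and 891 CPM in control libraries (log2 -0.39, SE 0.18, adjusted p = 0.280). In CPM, without TMM scaling, both CDK genes, Ccnd2 and Ccne2 sit below the control in both knockout libraries, without passing the test. These are 4 of the 10 members, while 30.6% of all tested genes were below in that sense. Ccnd3 had 505 and 428 CPM in miR-21-/- libraries, against 478 and 469 CPM in control libraries, and Ccnd1 had 1.32 and 0.488 CPM, against 2.01 and 1.12 CPM. Both pairs overlap. Ccne1 had 33.2 and 28.0 CPM in miR-21-/- libraries, against 34.0 and 26.2 CPM in control libraries. Ccne2 had 7.81 and 8.67 CPM, against 8.76 and 10.0 CPM. Its gap in CPM is small, and the fitted difference was log2 -0.11 (SE 0.23, edgeR adjusted p = 0.797).

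The inhibitors gave no call. Cdkn1a had 506 and 580 CPM in miR-21-/- libraries, against 516 and 729 CPM in control libraries, which overlap. Cdkn1b had 118 and 220 CPM in miR-21-/- libraries, against 107 and 187 CPM in control libraries (log2 0.29, SE 0.42, adjusted p = 0.709), and the replicates differ more than the groups. The summed RNA of 12 G2 and M phase genes also differs between these replicates, at 1797 and 2551 CPM in miR-21-/- libraries and 1369 and 1957 CPM in control libraries, and its part in the Cdkn1b values was not tested. Cdkn2c had 12.9 and 10.8 CPM in miR-21-/- libraries, against 7.83 and 10.0 CPM in control libraries, with no overlap (log2 0.47, SE 0.22, adjusted p = 0.289). In CPM, 1 of the 10 members had both miR-21-/- libraries above control, 4 had both below and 5 overlapped. Of all tested genes 23.7% were above in that sense, 30.6% were below, and 54.3% did not overlap in either direction. The median log2 difference was -0.12, against -0.02 over all tested genes.

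**Figure D2:**
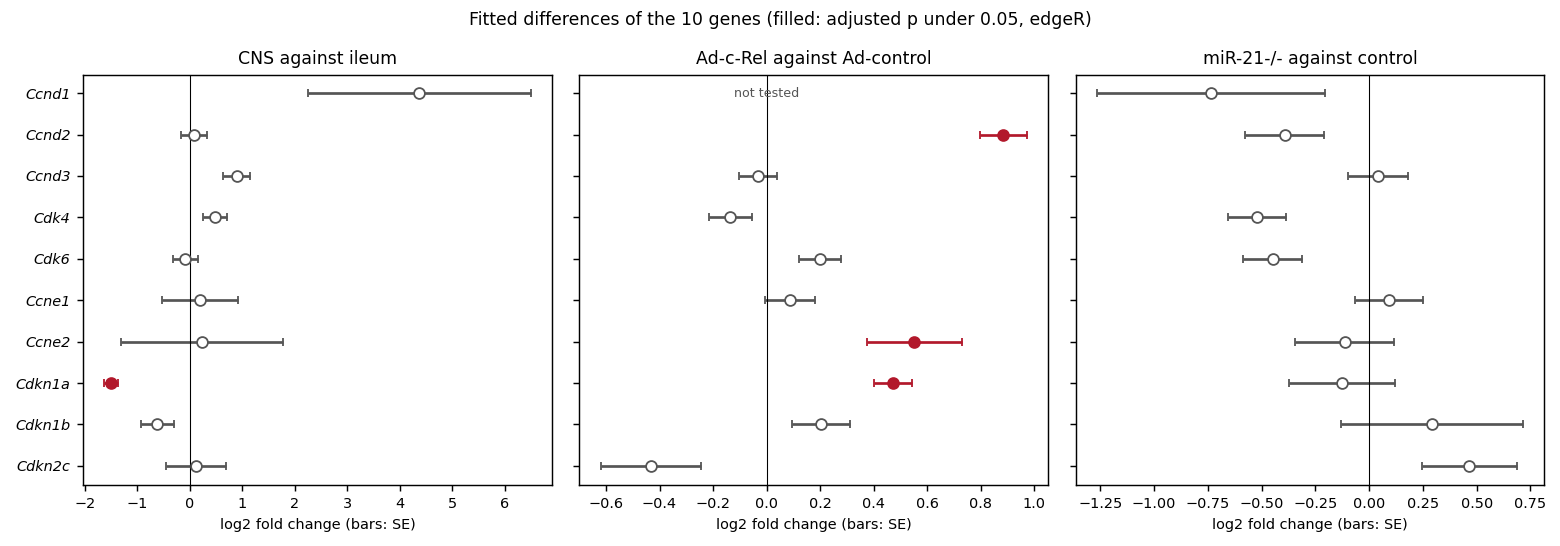
Log2 differences of the members in the 3 comparisons, CNS over ileum, Ad-c-Rel over Ad-control and miR-21-/- over control, with the standard error as bars. Filled points passed an adjusted p of 0.05 in edgeR: Cdkn1a at -1.49 in CNS, and Ccnd2 at 0.88, Cdkn1a at 0.47 and Ccne2 at 0.55 in Ad-c-Rel.

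Ratios of 2 genes in 1 library do not depend on library scaling, and their change between groups needs no gene length. The log2 ratio of Ccnd2 to Ccnd3 averaged 0.33 in Ad-c-Rel libraries, against -0.58 in Ad-control libraries, which do not overlap. In miR-21-/- cells it averaged 0.58, against 1.02 in control cells. It was 0.30 and 0.50 in CNS libraries, against 1.82 and 0.59 in ileum libraries, so that the size of this difference rests on ileum replicate 1. The log2 ratio of Cdk6 to Cdk4 averaged 0.12 in CNS libraries, against 0.69 in ileum libraries, and was 1.22 and 1.51 in Ad-c-Rel libraries, against 1.02 and 1.04 in Ad-control libraries. The log2 ratio of Cdkn1a to Cdkn1b averaged 2.77 in CNS libraries, against 3.65 in ileum libraries, and was 4.24 and 3.84 in Ad-c-Rel libraries, against 3.69 and 3.83 in Ad-control libraries. The log2 ratio of Ccne1 to Ccne2 averaged 2.95 in Ad-c-Rel libraries, against 3.43 in Ad-control libraries. In these comparisons the groups do not overlap, whereas they overlap for the other 2 ratios and Ccne1 to Ccne2 in miR-21-/- cells and for Ccne1 to Ccne2 in the CNS. With 2 libraries a group the two-sided exact permutation test cannot give a p under 0.333, so these are descriptions.

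**Figure D3:**
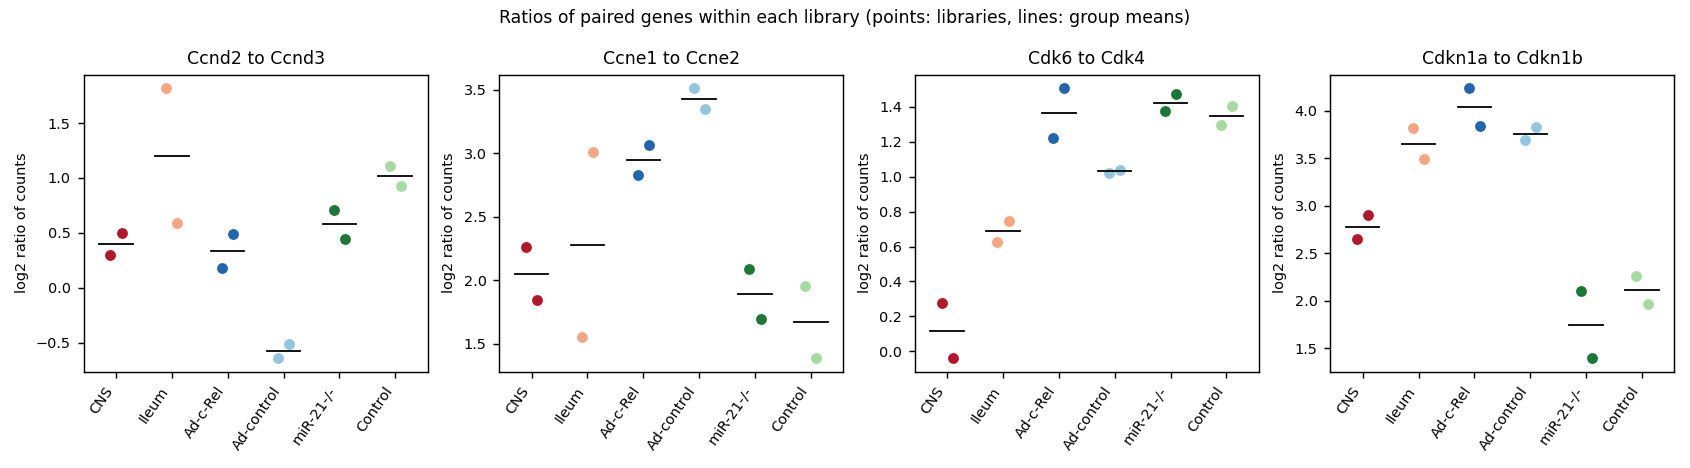
Log2 ratios of counts of paired genes within each library, with points for libraries and lines for group means. The Ccnd2 to Ccnd3 ratio is above 0 in both Ad-c-Rel libraries and below 0 in both Ad-control libraries.

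Other genes of the pathway were taken from lists chosen with earlier results of these data known. Of 13 Rb and E2F genes, edgeR called 3 lower and 0 higher in Ad-c-Rel cells (median log2 -0.15), where 6.11% of all tested genes were called lower. They were Rbl1, which encodes a relative of Rb (log2 -0.39, adjusted p = 0.00404), E2f2 (log2 -0.48, adjusted p = 0.00890) and the repressor E2f7 (log2 -1.14, adjusted p = 0.0115). E2f2 lost its call without Ad-c-Rel replicate 2 (adjusted p = 0.116) or Ad-control replicate 1 (adjusted p = 0.0980). E2f7 lost it with DESeq2 (adjusted p = 0.0675), without Ad-c-Rel replicate 1 (adjusted p = 0.0707) and without either Ad-control replicate (adjusted p = 0.0685 and 0.0559). In CNS cells edgeR called 0 of the 13, with 0 at an unadjusted p under 0.05 and 3 called higher by DESeq2. It called 1 lower without CNS replicate 1 and 1 higher without ileum replicate 1. In miR-21-/- cells edgeR called 0, with 5 at an unadjusted p under 0.05 and 0 called by DESeq2, and called 2 higher without miR-21-/- replicate 1. Of 12 other G1/S regulators, edgeR called 1 of 11 tested in CNS cells, where 9.66% of all genes tested were called. In Ad-c-Rel cells it called 1 of 11 higher and 1 lower, where 14.3% of all genes were called. In miR-21-/- cells it called 0 of 12, with 2 at an unadjusted p under 0.05 and 1 called higher by DESeq2. Cdc25a had log2 1.15 there (edgeR adjusted p = 0.107). Cdkn2d, which encodes the CDK4 and CDK6 inhibitor p19, averaged 103 ± 20.9 CPM in CNS libraries and 33.3 ± 3.41 CPM in ileum libraries (SD, n = 2 each). It rose in the CNS by log2 1.43 (SE 0.30, adjusted p = 0.0430), a call lost without CNS replicate 1 (adjusted p = 0.0585), without CNS replicate 2 (adjusted p = 0.222) and without ileum replicate 2 (adjusted p = 0.103). Cks1b, a CDK-binding subunit, averaged 20.0 ± 2.71 CPM in Ad-c-Rel libraries and 43.8 ± 1.26 CPM in Ad-control libraries (SD, n = 2 each; log2 -1.07, adjusted p = 7.54e-06). Cdkn2b, which encodes the inhibitor p15, averaged 1.05 ± 0.366 CPM in Ad-c-Rel libraries and 0.140 ± 0.0147 CPM in Ad-control libraries (log2 2.89, adjusted p = 0.00785), a call lost without Ad-c-Rel replicate 1 (adjusted p = 0.117) or either Ad-control replicate (adjusted p = 0.0739 and 0.0689).

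In Ad-c-Rel cells all 12 tested G2 and M phase genes were called lower (median log2 -1.23), while 6.11% of all tested genes were called lower. The 12 include Ccna2 (-1.55), Ccnb2 (-1.62), Cdc20 (-1.36) and Ccnb1 (-1.13), and all 12 were called in every alternative. Of 15 S phase genes that E2F regulates, 9 were called lower, 6 did not pass and 0 were called higher (median log2 -0.32, beside the same 6.11%), including Rrm2 (-0.65, adjusted p = 0.000249) and Mcm4 (-0.43, adjusted p = 0.00113). That count was 3 to 6 when any 1 of the 4 libraries was left out. Of 12 p53 target genes other than Cdkn1a, 5 were called higher and 0 lower (median log2 0.23), where 8.15% of all tested genes were called higher, including Pmaip1 (0.59, adjusted p = 0.000573) and Zmat3 (0.50, adjusted p = 0.00124). That count was 3 with any 1 of the 4 libraries left out. In CNS cells 2 of 11 p53 targets were called lower, Trp53inp1 (log2 -2.50, adjusted p = 0.00228) and Pmaip1 (log2 -1.28, adjusted p = 0.0112), where 5.66% of all tested genes were called lower. The list as a whole did not lean that way, with 6 genes above and 5 below 0 and a median log2 of 0.20, which was -0.14 without CNS replicate 1. In addition to 2 or 3 targets called lower, 1 p53 target was called higher by DESeq2 and by the fit without a filter. T cell scaling and the fit with the replicate number as a block each called 1 higher too. The S phase list had 0 of 15 and the G2 and M list 0 of 12 called in CNS cells by edgeR, with 4 and 1 at an unadjusted p under 0.05, which 24.4% of all genes reached. DESeq2 called 5 and 1 of them lower, and 1813 of 12038 genes lower in all. The fit without a filter called 3 S phase genes lower (1300 of 15684 genes in all), and the replicate block 1 (775 of 12038). The S phase list had 11 genes below and 4 above 0, with a median log2 of -0.55, against 0.08 over all tested genes. With T cell scaling that median was -0.06, against 0.53 over all genes. The G2 and M list had a median of -0.03. Without ileum replicate 1, edgeR called 3 G2 and M genes higher, and without CNS replicate 1 it called 1 gene of each list lower.

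In miR-21-/- cells edgeR called 0 genes of these lists, and 21.0% of all genes had an unadjusted p under 0.05. DESeq2 called 339 of 12647 genes higher there and 485 lower. The 12 G2 and M genes were all above 0 (median log2 0.45), with 6 at an unadjusted p under 0.05 and 2 called higher by DESeq2, for example Cdc20 (log2 1.16, edgeR adjusted p = 0.126). The 12 p53 targets were also all above 0 (median log2 0.62), with 10 at an unadjusted p under 0.05 and 4 called higher by DESeq2, for example Phlda3 (log2 0.92, edgeR adjusted p = 0.124). Without miR-21-/- replicate 1, edgeR called 4 G2 and M genes and 5 p53 targets higher. Of the 15 S phase genes, 13 were below 0 (median log2 -0.15), 2 had an unadjusted p under 0.05 and DESeq2 called 0, with Pcna at log2 -0.54 (edgeR adjusted p = 0.157).

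**Figure D4:**
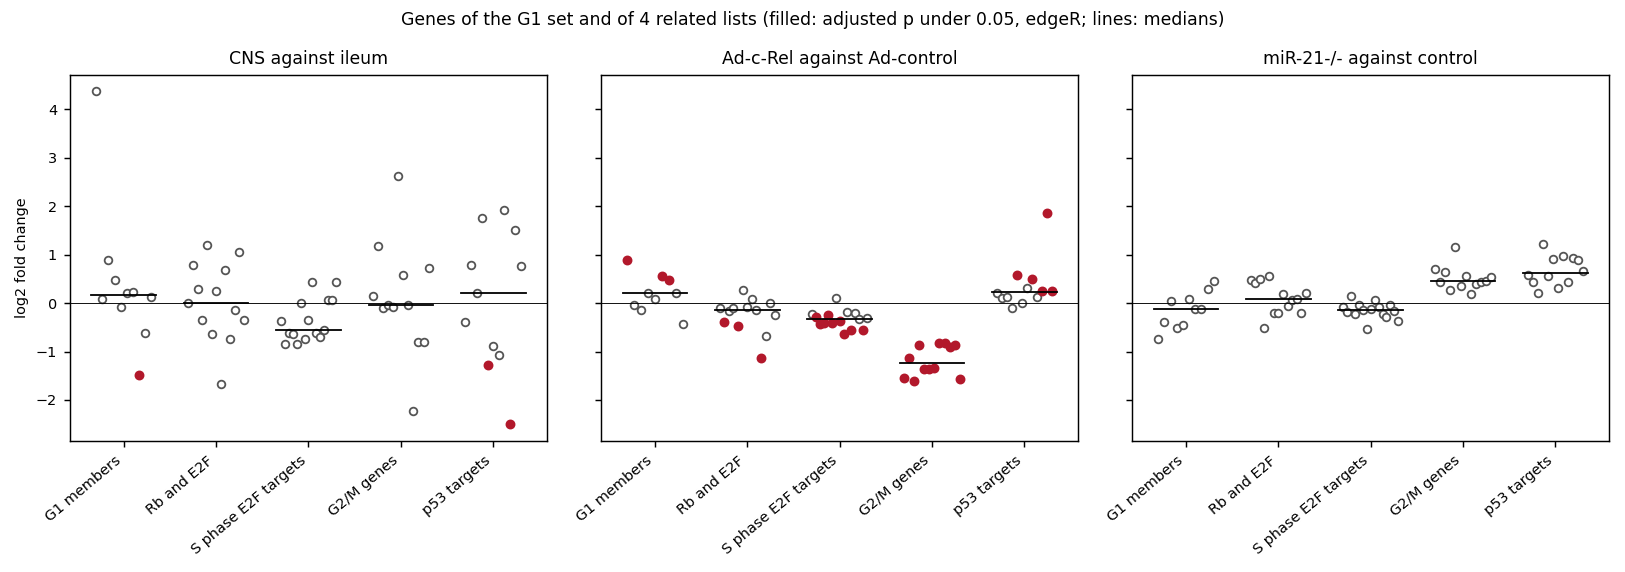
Log2 differences of the 10 members and of the genes of 4 pathway lists in the 3 comparisons, with 1 point per gene, filled where edgeR's adjusted p was under 0.05, and a line at the median. In Ad-c-Rel cells the G2 and M genes sit lowest, at a median of -1.23.

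Across the 6 groups the levels are described and not tested, since the experiments differ in their cells. The sorted cells and the TH17(23) cultures also differ in kit, and which kit made the Ad libraries is unclear from the labels. Ccnd2 averaged 1017 ± 114 CPM in Ad-c-Rel cells, 961 ± 98.5 CPM in the TH17(23) control and 704 ± 169 CPM in miR-21-/- cells. It then averaged 574 ± 29.1 CPM in Ad-control cells, 251 ± 2.40 CPM in CNS cells and 206 ± 60.0 CPM in ileum cells (SD, n = 2 each). Neighbours in that order overlap between Ad-c-Rel and the TH17(23) control and between miR-21-/- and Ad-control. Cdkn1a averaged 1189 ± 13.6 CPM in Ad-c-Rel cells, 892 ± 3.21 CPM in Ad-control cells, 622 ± 151 CPM in the TH17(23) control and 613 ± 5.48 CPM in ileum cells. It averaged 543 ± 51.8 CPM in miR-21-/- cells and 250 ± 2.21 CPM in CNS cells, and the TH17(23) control overlaps with the ileum. The 6 members Ccnd2, Ccnd3, Cdk6, Ccne1, Ccne2 and Cdkn1b were higher in all 8 cultured libraries than in all 4 sorted ones, and Cdkn2c was lower in all 8. Among the 10144 genes averaging 5 CPM or more, 18.7% were higher and 11.1% lower in that sense, and culture, library preparation and cell mixture cannot be told apart there. Ccne1 had a median of 46.6 CPM in cultured libraries and 10.2 CPM in sorted libraries.

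The genes whose log2(CPM + 1) most resembled a member's over the 12 libraries, by Pearson correlation, were Gtf3c3 for Ccne1 (r = 0.996), Il2ra for Cdk6 (r = 0.992), Stambpl1 for Ccnd3 (r = 0.989), Clasp1 for Ccne2 (r = 0.981) and Smox for Cdkn1a (r = 0.978). Stc1 came first for Ccnd2 (r = 0.970), Mfsd13a for Cdk4 (r = 0.969), Wasf2 for Cdkn1b (r = 0.966) and Trim12a for Cdkn2c (r = 0.953). Among the members themselves, Ccnd3 and Ccne1 were closest (r = 0.956). Libraries of 1 experiment share cells and preparation, so these values describe the 12 libraries and carry no p.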

How the data were processed

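RNA was measured in 12 libraries. Per the labels and the submitters' processing notes, the authors deposited raw counts per gene symbol. The notes list TopHat2 2.1.0, HTSeq 0.11.0, Trim Galore 0.4.4, CASAVA 1.4, DESeq2, HOMER, SAMtools, Bowtie2 and build mm10, without saying what each was used for. Annotation and strand setting: not given in the sources used here, so reads of overlapping genes cannot be assigned with certainty. Lines naming no gene held 14.7% to 26.1% of each table and stayed out of library sizes. Multiply aligned reads had 0 in the TH17(23) tables and 2.25% to 3.52% elsewhere. CPM was computed from the deposited counts. Whether the CPM of libraries overlap was judged without TMM scaling, so a small gap in CPM need not hold on the scale of the fit. TMM moved the log2 differences by -0.20 in the CNS, 0.06 in the Ad-c-Rel and 0.07 in the miR-21-/- pair. Each pair of groups was fitted on its own 4 libraries in edgeR 4.0.16 (R 4.3.3) with filterByExpr, TMM scaling and the two-sided quasi-likelihood F test, with Benjamini-Hochberg adjustment over all genes tested and a threshold of 0.05. SE is the absolute log2 difference over the square root of F. DESeq2 1.42.0, other filters and scalings, a replicate block and leaving out each library were tried. The scripts were tested on simulated data. With the spread of the CNS and ileum libraries, 12% of simulated 2-fold and 54% of 4-fold changes were called. These shares were 98% and 100% in the Ad pair and 63% and 100% in the miR-21 pair. A gene not called between CNS and ileum may therefore still differ. Named genes are the 10 members, up to 4 called genes of smallest p per list (or the 2 of smallest p where none was called), and the nearest patterns. The members and lists were chosen with earlier results of these data known. Floors cover counting error only. The 8 ATAC-seq samples are not analysed here.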

Additional observations from a re-analysis of the deposited data

How the results depend on the processing

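Of 242 values recomputed, 208 kept their direction and side of the threshold, 5 lost a call, 11 gained one and 18 changed sign. Between CNS and ileum the edgeR fit called 1163 genes (482 higher, 681 lower), DESeq2 called 3551, the fit without a filter 2413 and leaving out 1 library 893 to 1922, the last without ileum replicate 1. Scaling on T cell markers moved the median of all genes to log2 0.53, against 0.08, and called 968 higher and 382 lower. Of the 10 members 1 was called there, and 3 with DESeq2, which called 3551 of 12038 genes in all. The fit without a filter called 2 members and 2413 of 15684 genes, and T cell scaling called 2 members and 1350 of 12038 genes. Between Ad-c-Rel and Ad-control, 1671 genes were called, and 926 to 1356 with 1 library left out, with 926 without Ad-c-Rel replicate 2 and 935 without Ad-control replicate 1. Between miR-21-/- and control, 0 genes were called, 824 with DESeq2, 40 without a filter and 3 to 1327 with a library left out, the highest without miR-21-/- replicate 1.

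With the replicate number as a block, 2802 of 11711 genes were called in Ad-c-Rel and 4807 of 13428 in miR-21-/- cells. In miR-21-/- cells 4 of the 10 members were called (Ccnd2, Cdk4 and Cdk6 lower, Cdkn2c higher), beside those 4807 genes. There 10 of 12 G2 and M genes and 11 of 12 p53 targets were called higher. Of 13 Rb and E2F genes 4 were called higher and 1 lower, and of 15 S phase genes 2 were called lower. The block called Cdk6 in Ad-c-Rel cells (adjusted p = 0.0157) and lost Cdkn2d in CNS cells (adjusted p = 0.0502). Same-numbered libraries deviated together with r = 0.078, 0.106 and 0.659 in the CNS, Ad-c-Rel and miR-21-/- pairs. The labels do not say that numbers pair samples.

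With T cell scaling, Cdk6 in CNS was log2 0.37. With 1 library left out, log2 ranged in CNS from -0.21 to 0.44 for Ccnd2, -0.31 to 0.10 for Cdk6, -0.35 to 0.53 for Ccne1, -0.28 to 1.04 for Ccne2 and -0.33 to 0.41 for Cdkn2c. In Ad-c-Rel it ranged from -0.013 to 0.18 for Ccne1 and -0.0092 to 0.38 for Cdkn1b. In miR-21-/- it ranged from -0.040 to 0.26 for Ccne1, -0.27 to 0.053 for Ccne2, -0.38 to 0.20 for Cdkn1a and -0.33 to 0.80 for Cdkn1b. The cause of these changes was not tested. Groups of 2 libraries limit the precision, and low counts limit Ccnd1 and Ccne2.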
